A study of Mus musculus with 6 samples.

Results

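The BAF and NuRD complexes move, open and close nucleosomes, and 32 genes that encode their subunits were followed in mouse embryonic stem cells. The genes were taken by name from the 23999 gene symbols of the deposited table, with 21 subunits of BAF, the mammalian SWI/SNF complex, and 11 subunits of NuRD. The rule is a list of names and uses no measured value, but the list was drawn up with earlier results of these data known. All 32 were in the table, and 30 had enough reads to be tested. Polyadenylated RNA was sequenced from 3 vehicle samples and 3 samples given 4-hydroxytamoxifen, written 4OHT, each after 6 days of treatment. Vehicle was ethanol. Both groups carried the same genotype, a floxed element named -5 together with an exogenous mouse Nanog copy with a V5 tag, so the vehicle cells had both features too. A floxed element can be removed by Cre recombinase, and 4OHT is the usual ligand for a Cre fused to an oestrogen receptor. The Cre itself, the number of clones and the culture medium were not named in the labels. The series title concerns an enhancer of Nanog, so the comparison asked how RNA levels differed after 4OHT in cells with this floxed element. No label says that the replicates came from separate cultures, and the p-values then measure only the spread between these samples.

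BAF uses an ATPase, SMARCA4 (BRG1) or SMARCA2 (BRM), to slide or eject nucleosomes, and its other subunits come from families of paralogs of which a complex usually takes a single member. Embryonic stem cells are known for a form built on SMARCA4, SMARCC1 and ARID1A, while SMARCD3, ACTL6B, DPF1 and DPF3 are best known from heart, muscle and neurons. NuRD joins a CHD helicase to the histone deacetylases HDAC1 and HDAC2, with MTA and GATAD2 proteins as scaffold and either MBD2 or MBD3. MBD3 and NuRD are known to hold down genes of the pluripotent state so that stem cells can leave it, and NANOG protein has been found together with NuRD subunits.

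The vehicle libraries held 20030423 to 52250671 counts. The 4OHT libraries held 55194644, 515388 and 31307423 counts for replicates 1, 2 and 3. In the shallow 4OHT replicate 2 a single read was worth 1.91 CPM (CPM is the read count scaled to a common library size), and 2028 of 14458 tested genes had no read. Nanog, the gene under study, fell from 644 ± 14.5 to 181 ± 11.5 CPM (SD, n = 3 each), with a log2 fold change of -1.81 (SE 0.06, edgeR adjusted p = 1.6e-13), and reads of the V5-tagged copy may be part of these values. All 8 stem cell markers listed (among them Pou5f1, Sox2 and Esrrb) were tested, of which 1 was higher and 1 lower in 4OHT. Their summed level was 6176 to 6375 CPM in vehicle and 5934 to 6284 CPM in 4OHT libraries. All 9 endoderm markers rose, from a summed 97.0 to 108 CPM to 176 to 211 CPM. Their part in the results below was not tested.

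Of the 6 members that passed the test of 4OHT against vehicle, 4 had a RefSeq promoter entry: Smarcd3, Smarca2, Arid1a and Mta1. Their sequences before the annotated start are shown because Smarcd3 fell while Smarca2, Arid1a and Mta1 rose. Each runs 5′ to 3′ on the strand of the gene (RefSeq, GRCm38.p6), covers the stretch of the 250 bases before the start that lies outside annotated exons of GENCODE vM21, and has capitals for each GC box (GGGCGG on either strand). Smarcd3, on the minus strand at chr5:24602013-24602252, is the member that fell most. Smarca2 is on the plus strand at chr19:26604910-26605049. Arid1a has a pair of listed starts on the minus strand, the outer with chr4:133756770-133757019, which lies outside any gene, and the inner with chr4:133753986-133754235, which lies in an intron of Arid1a. Mta1 is on the plus strand at chr12:113098028-113098277, outside any gene.
Smarcd3: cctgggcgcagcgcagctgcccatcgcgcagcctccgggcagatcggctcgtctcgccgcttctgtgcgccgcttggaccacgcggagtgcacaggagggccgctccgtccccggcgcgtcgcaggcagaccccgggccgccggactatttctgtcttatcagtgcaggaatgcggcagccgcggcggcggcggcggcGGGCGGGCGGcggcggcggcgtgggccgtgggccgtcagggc
Smarca2: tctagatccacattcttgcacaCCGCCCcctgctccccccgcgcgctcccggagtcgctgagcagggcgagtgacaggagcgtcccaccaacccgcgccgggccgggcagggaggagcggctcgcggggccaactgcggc
Arid1a, outer start: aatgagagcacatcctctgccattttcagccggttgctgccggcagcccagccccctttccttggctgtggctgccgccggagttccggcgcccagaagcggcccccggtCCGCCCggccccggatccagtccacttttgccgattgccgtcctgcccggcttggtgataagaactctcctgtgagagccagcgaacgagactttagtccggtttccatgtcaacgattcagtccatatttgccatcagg
Arid1a, inner start: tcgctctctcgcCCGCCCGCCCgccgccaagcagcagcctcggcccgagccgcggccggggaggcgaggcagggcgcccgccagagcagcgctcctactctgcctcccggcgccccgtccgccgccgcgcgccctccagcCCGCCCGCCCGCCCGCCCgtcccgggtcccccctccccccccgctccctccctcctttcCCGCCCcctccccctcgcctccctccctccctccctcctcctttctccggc
Mta1: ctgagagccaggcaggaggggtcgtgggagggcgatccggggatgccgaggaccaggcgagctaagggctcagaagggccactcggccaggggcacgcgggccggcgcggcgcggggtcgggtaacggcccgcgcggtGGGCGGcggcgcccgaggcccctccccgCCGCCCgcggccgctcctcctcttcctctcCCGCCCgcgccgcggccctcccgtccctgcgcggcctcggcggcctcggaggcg

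Promoter entries were found for 26 of the 32 members, in 31 windows of 250 bases before a start. These windows were rich in G and C. Their median GC content was 67.2% (range 54.0% to 88.4%), beside 60.0% for the windows of all tested genes and 52.4% for all 32851 windows of the table. The median number of CG dinucleotides was 23 in the members' windows, 15 in those of tested genes and 6 in all windows. A GC box, overlapping copies counted each, was present in 27 of 31 members' windows (87.1%), in 57.2% of the windows of tested genes and in 32.7% of all windows. The full windows held 2 GC boxes before the start of Smarcd3, which fell, and 2, 3 and 7 before those of Smarca2, Mta1 and the inner start of Arid1a, which rose, so this motif was present on both sides. The CCAAT box (CCAAT) was in 9 of 31 members' windows (29.0%), in 35.2% of the windows of tested genes and in 33.8% of all windows. The E-box (CACGTG) was in 1 (3.23%), in 8.33% and in 6.02%, and the ETS core (CCGGAAG) in 6 (19.4%), in 12.5% and in 6.91%. The octamer of POU factors (ATGCAAAT) was in the window of Mta2 alone among the members, in 1.22% of the windows of tested genes and in 1.6% of all windows. Both strands were searched for each motif, and a match is a description of these letters only. The 31 windows are not independent. Brd9 has a pair of overlapping windows, so its 4 GC boxes and its ETS core were counted in both. The windows of Chd4 overlap as well, and overlap among windows of other genes was not counted.

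The subunits stood at very different levels, and the paralogs named above for stem cells were the higher ones. Levels are compared between genes as CPM per kilobase of merged exons of coding transcripts. Chd4, the main NuRD helicase, was highest in vehicle cells with 121 ± 1.99 CPM per kilobase (SD, n = 3), followed by Actl6a, an actin-related BAF subunit, with 116 ± 3.22, and the vehicle libraries of these genes overlapped. Next came Mbd3 (79.7 ± 1.31 CPM per kilobase), Mta2 (75.9 ± 1.14), Smarcb1, a core BAF subunit (71.1 ± 2.59), and Hdac1 (68.6 ± 1.26). Smarcd1 stood at 65.5 ± 0.973 CPM per kilobase, Smarcc1 at 58.6 ± 1.59, Arid1a at 57.5 ± 3.94 and Smarca4 at 57.2 ± 0.971. The last 3 of these overlapped between neighbours. At the low end, Smarcc2 had 4.77 ± 0.482 CPM per kilobase, Arid1b 4.62 ± 0.225, Chd3 3.96 ± 0.107 and Smarca2 0.274 ± 0.0057. Among the 31 neighbouring pairs of this order, 13 overlapped in their vehicle libraries. With the longest coding transcript as length Actl6a came before Chd4, and Chd4 was second.

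**Figure D1:**
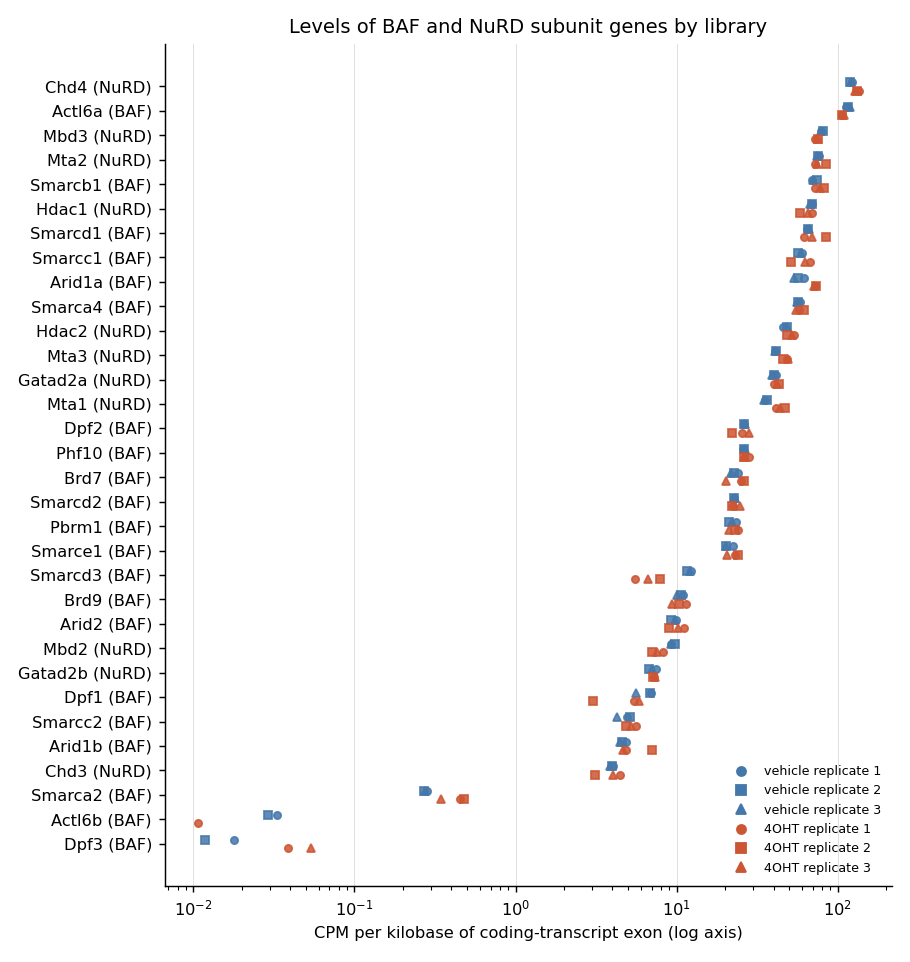
Level of each subunit gene in CPM per kilobase of exon (log axis) in each of the 6 libraries, ordered by the vehicle mean, with values of 0 not drawn. Between vehicle (blue) and 4OHT (orange) 2 members move by more than 2 places in the order of means. The tested members span from Chd4 at 121 CPM per kilobase in vehicle down to Smarca2 at 0.274, and Smarcd3 stands to the left of its vehicle points in 4OHT.

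Actl6b and Dpf3, subunits of neuronal and muscle forms of BAF, did not have enough reads to be tested. Actl6b had 3, 1 and 0 reads in vehicle libraries 1, 2 and 3 and 1, 0 and 0 reads in the 4OHT libraries. Dpf3 had 4, 1 and 0 reads in vehicle and 9, 0 and 7 reads in 4OHT libraries. A count of 0 in the shallow 4OHT replicate 2 allows a level up to 5.73 CPM (3 reads, counting error only), while the same limit is 0.0548 CPM in 4OHT replicate 1. Of 9 neuron markers 7 were tested, of which 2 were lower and 0 higher in 4OHT, with Dcx at 0 in all 6 libraries and a summed level of 425 to 441 CPM in vehicle and 367 to 402 CPM in 4OHT libraries. Of 6 muscle markers 3 were tested and 0 passed, with sums of 30.3 to 34.9 and 28.6 to 30.4 CPM. Of 8 fibroblast markers, listed for feeder cells, 4 were tested, of which 1 was lower and 0 higher. Their sum was 24.4 to 26.1 CPM in vehicle and 14.0 to 19.1 CPM in 4OHT libraries, without overlap. Of these markers 5 (Col1a2, Col3a1, Lum, Dcn and Postn) had means under 1 CPM in both groups. The sum therefore rests mainly on Col1a1, Thy1 and Pdgfrb. Postn was at 0 in all 6 libraries, and the part of these marker lists in the results was not tested.

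Of the 30 tested members 6 passed the test between 4OHT and vehicle cells, 4 higher and 2 lower. Arid1a, Smarca2, Mta1 and Mta3 rose, and Smarcd3 and Mbd2 fell. This is 20% of the members, beside 22.4% of all 14458 tested genes (edgeR's quasi-likelihood test, adjusted p under 0.05), so the share was near that of other genes. Rises made up 13.3% of members and 11.9% of all genes, and falls made up 6.67% and 10.5%. By complex, 3 of 19 BAF members and 3 of 11 NuRD members passed. The groups did not overlap for 9 of the 30 members (30.0%), beside 31.3% of all tested genes. Leaving out the shallow 4OHT replicate 2 gave 4 rises and 2 falls as well. A fit blocked on the replicate number passed 9 members, 7 higher and 2 lower.

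**Figure D2:**
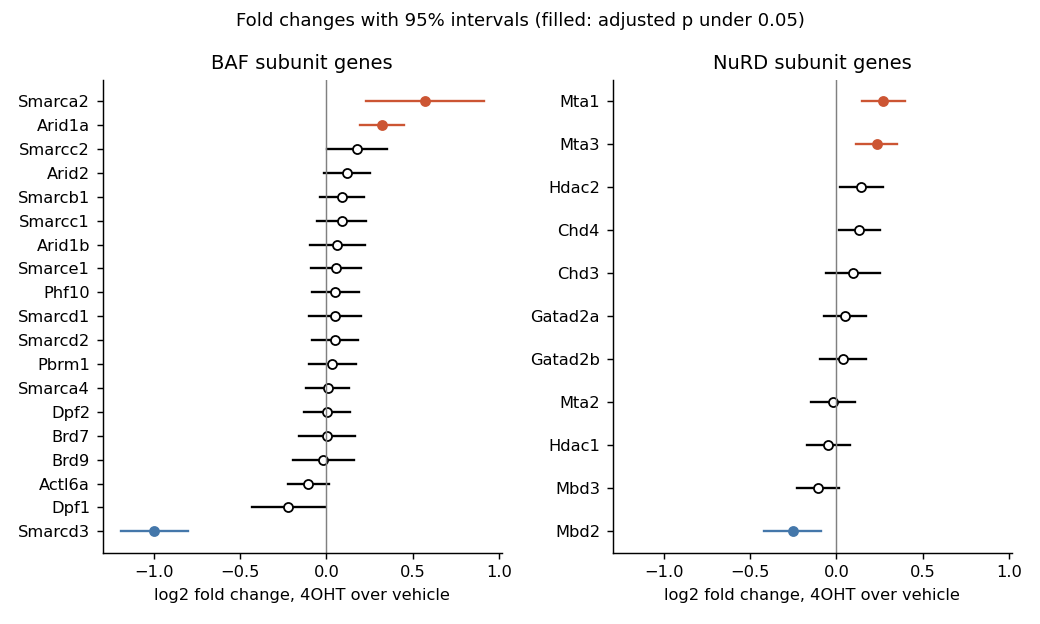
Log2 fold change of 4OHT over vehicle with its 95% interval for 19 BAF (left) and 11 NuRD (right) subunit genes, filled where the edgeR adjusted p was under 0.05 (orange higher, blue lower). Smarcd3 lies at -0.996, away from the other members, which lie between -0.25 (Mbd2) and 0.57 (Smarca2).

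Most members had small fold changes with narrow intervals. The median log2 fold change of the 30 was 0.05, beside 0.00 for all tested genes. Of the members' values 22 lay above and 8 below 0, beside 7134 above and 7324 below for all tested genes. For CHD and other remodellers 10 lay above and 3 below, and for INO80, SRCAP and TIP60-p400 8 above and 9 below. The median of the absolute log2 fold changes was 0.09 for members and 0.14 for all tested genes. For 22 members (73.3%) the whole 95% interval lay within a 1.25-fold change in either direction, beside 43.6% of all tested genes. Among the other lists given below, this share was 64.7% for INO80, SRCAP and TIP60-p400 and 61.5% for CHD and other remodellers. It was 55.6% for other NuRD genes, 54.5% for ISWI and 30.0% for other BAF subunits. Their medians of absolute log2 fold changes ran from 0.10 (INO80, SRCAP and TIP60-p400) to 0.21 (other BAF subunits). Small changes were thus not particular to the members. The members' median SE was 0.064, beside 0.089 for all tested genes. The summed level of the 21 BAF genes was 2765, 2669 and 2656 CPM in vehicle and 2897, 2910 and 2832 CPM in 4OHT libraries. The sum of the 11 NuRD genes was 2201, 2176 and 2166 CPM in vehicle and 2338, 2316 and 2298 CPM in 4OHT libraries. Both sums were higher in each 4OHT library than in any vehicle library, and 3 against 3 samples cannot reach a 2-sided exact permutation p below 0.1. Arid1a and Chd4 are the most abundant members in CPM and take large parts of these sums. The mean BAF sum went from 2697 to 2880 CPM, while Arid1a alone went from 540 to 677 CPM. The mean NuRD sum went from 2181 to 2317 CPM, while Chd4 alone went from 884 to 968 CPM. The higher sums therefore do not show a rise across the subunits, and sums without these genes were not tested.

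Among the ATPases, the abundant Smarca4 did not pass and the scarce Smarca2 rose. Smarca4 stood at 377, 370 and 364 CPM in vehicle and 373, 401 and 359 CPM in 4OHT libraries 1, 2 and 3. These values overlapped (log2 fold change 0.01, 95% interval -0.12 to 0.13, edgeR adjusted p = 0.963). Smarca2 stood at 2.23, 2.14 and 2.17 CPM in vehicle and 3.62, 3.82 and 2.74 CPM in 4OHT libraries. All 3 of its 4OHT values lay above the vehicle values, with a log2 fold change of 0.57 (SE 0.16, edgeR adjusted p = 0.0151). The value of 4OHT replicate 2 rests on 2 reads. The call depended on single libraries: without 4OHT replicate 1 the log2 fold change was 0.34 (edgeR adjusted p = 0.298), and without vehicle replicate 1 or 2 the adjusted p was 0.056 or 0.051. DESeq2 gave an adjusted p of 0.601 and quantile normalization in limma-voom 0.0667.

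Smarcb1, Smarce1, Smarcc1, Smarcc2 and Actl6a, subunits outside the ATPase, SMARCD and ARID families, did not pass. Smarcb1, the subunit also called SNF5, had 115, 123 and 117 CPM in vehicle and 121, 137 and 128 CPM in 4OHT libraries, with overlap (log2 fold change 0.09, 95% interval -0.04 to 0.22). Smarce1, which carries an HMG box, had a log2 fold change of 0.06 (95% interval -0.09 to 0.20). Smarcc1, a scaffold of the complex in stem cells, had 414, 392 and 406 CPM in vehicle and 461, 353 and 429 CPM in 4OHT libraries, and its shallow 4OHT library was the lowest of all 6 (log2 fold change 0.09, 95% interval -0.05 to 0.23). Its paralog Smarcc2 had 25.2, 26.6 and 21.8 CPM in vehicle and 28.7, 24.8 and 26.8 CPM in 4OHT libraries. These overlapped, and the log2 fold change was 0.18 (edgeR adjusted p = 0.142). Blocked on the replicate number, Smarcc2 had an adjusted p of 0.0199, and it had 0.0413 without 4OHT replicate 3. Actl6a had 262, 267 and 277 CPM in vehicle and 246, 248 and 254 CPM in 4OHT libraries, with no overlap but a small difference (log2 fold change -0.11, 95% interval -0.22 to 0.01, edgeR adjusted p = 0.207). The gene Mrpl47 on the opposite strand covers 11.6% of its exon bases, and its adjusted p was 0.0482 with quantile normalization.

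Smarcd3 had the largest fold change of the 30 tested members. It encodes BAF60C, the SMARCD subunit best known from heart and muscle, which links the complex to transcription factors. Its vehicle values were 24.1, 22.6 and 23.6 CPM and its 4OHT values 10.7, 15.3 and 12.9 CPM. All 4OHT libraries lay well below all vehicle libraries, at a fold change of 0.501 (log2 fold change -0.996, SE 0.09, 95% interval -1.19 to -0.80, edgeR adjusted p = 1.09e-07). It passed in all 11 alternative fits, with log2 fold changes between -1.12 and -0.86. The value of 4OHT replicate 2 rests on 8 reads. The gene Chpf2 on the opposite strand covers 48.2% of the exon bases of Smarcd3, and no label says whether the counting used strand, so the value of Smarcd3 is uncertain to that extent. Chpf2 itself stood at 9.91 ± 0.552 CPM in vehicle and 7.89 ± 3.53 CPM in 4OHT cells (SD, n = 3 each). Its 4OHT values were 9.78, 3.82 and 10.1 CPM, and that of replicate 2 rests on 2 reads. The log2 fold change of Chpf2 was -0.02 (95% interval -0.24 to 0.20).

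The other SMARCD genes did not pass. Smarcd1 stood at 231, 235 and 238 CPM in vehicle and 222, 302 and 246 CPM in 4OHT libraries (log2 fold change 0.05, 95% interval -0.10 to 0.20). Its 4OHT values spread on both sides of the vehicle values. Smarcd2 stood at 70.5, 70.3 and 71.2 CPM in vehicle and 69.7, 68.7 and 77.2 CPM in 4OHT libraries (log2 fold change 0.05, 95% interval -0.08 to 0.18). Smarcd3 made up 12.0% ± 0.41 of the family's reads per kilobase in vehicle and 6.54% ± 0.375 in 4OHT cells (SD, n = 3 each), and Smarcd1 made up 65.3% ± 0.503 and 70.4% ± 2.88. Such a share is formed within a library and does not depend on the scaling between libraries.

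**Figure D3:**
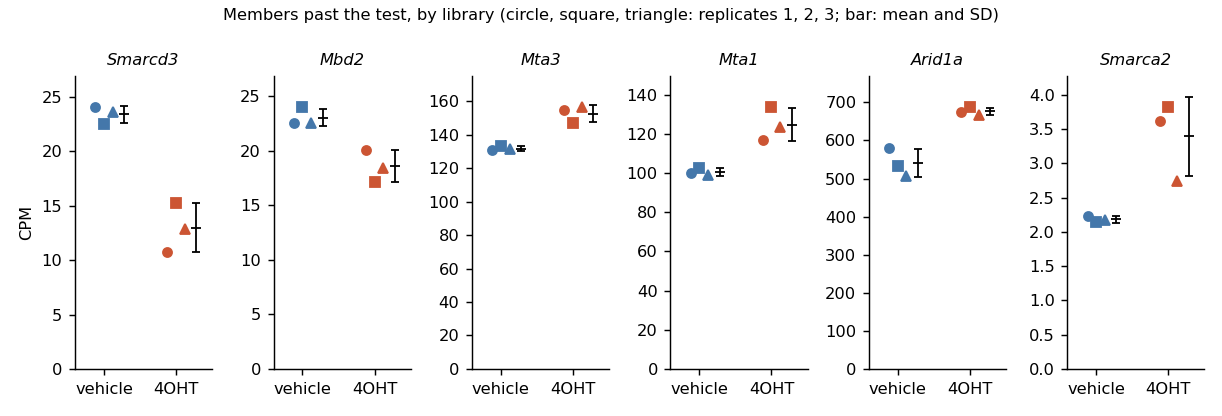
CPM of the 6 members that passed the test in each of 3 vehicle and 3 4OHT libraries, with the mean and SD beside the points and each axis starting at 0. The groups do not overlap for any of the 6, and Smarcd3 has 22.6 to 24.1 CPM in vehicle and 10.7 to 15.3 CPM in 4OHT libraries.

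Arid1a was the only ARID gene that passed. It encodes the large DNA-binding subunit of canonical BAF, while ARID2 belongs to the PBAF form. Its vehicle values were 580, 534 and 506 CPM and its 4OHT values 675, 687 and 668 CPM. The groups were apart by more than their spread, at a fold change of 1.25 (log2 fold change 0.32, SE 0.06, 95% interval 0.19 to 0.45, edgeR adjusted p = 0.000612), and Arid1a passed in all 11 alternative fits. In CPM per kilobase it went from 57.5 ± 3.94 to 72.1 ± 1.05, from the ninth to the sixth place among the members. Arid1b, its paralog, stood at 55.8, 52.2 and 50.8 CPM in vehicle and 55.5, 80.2 and 53.0 CPM in 4OHT libraries. Its high value of 80.2 CPM came from the shallow library, where it rests on 42 reads, and the log2 fold change was 0.06 (95% interval -0.10 to 0.22). Arid2 had 86.8, 81.5 and 86.2 CPM in vehicle and 97.2, 78.3 and 89.0 CPM in 4OHT libraries (log2 fold change 0.12, edgeR adjusted p = 0.204). Its adjusted p was 0.0416 once 4OHT replicate 3 was left out. The share of Arid1a in the reads per kilobase of Arid1a and Arid1b was 92.6% in vehicle and 93.0% in 4OHT cells, with overlap between the groups.

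The remaining PBAF subunits and the accessory subunits did not pass. Pbrm1, the polybromo subunit of PBAF, had a log2 fold change of 0.03 (95% interval -0.10 to 0.17), Phf10 0.05 (-0.08 to 0.19) and Brd7, a bromodomain subunit of PBAF, 0.00 (-0.16 to 0.17). Brd9, the bromodomain subunit of the non-canonical form of BAF, had -0.02 (95% interval -0.19 to 0.16). Dpf2, the PHD finger subunit of stem cell BAF, stood at 88.6, 87.9 and 89.4 CPM in vehicle and 85.5, 74.5 and 94.4 CPM in 4OHT libraries (log2 fold change 0.00, 95% interval -0.13 to 0.14). Dpf1, known from neurons, stood at 17.6, 17.4 and 14.3 CPM in vehicle and 13.8, 7.64 and 14.8 CPM in 4OHT libraries. The groups overlapped, and its lowest value rests on 4 reads (log2 fold change -0.22, edgeR adjusted p = 0.133). Its adjusted p was 0.0321 once 4OHT replicate 3 was left out.

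In NuRD, a pair of the 3 MTA scaffold genes rose. Mta1 had 99.9, 103 and 99.1 CPM in vehicle and 117, 134 and 124 CPM in 4OHT libraries, all 4OHT values above all vehicle values (log2 fold change 0.27, SE 0.06, 95% interval 0.15 to 0.40, edgeR adjusted p = 0.00224). Mta3 had 131, 133 and 131 CPM in vehicle and 155, 147 and 156 CPM in 4OHT libraries, again with no overlap (log2 fold change 0.23, SE 0.06, 95% interval 0.11 to 0.35, edgeR adjusted p = 0.00519). Both passed in all 11 alternative fits, with highest adjusted p of 0.0243 for Mta1 and 0.0453 for Mta3. Mta2, which had the highest level of the family per kilobase, stood at 242, 237 and 235 CPM in vehicle and 225, 265 and 235 CPM in 4OHT libraries, with overlap (log2 fold change -0.02, 95% interval -0.15 to 0.11). Within the family the share of Mta1 in reads per kilobase was 23.3% ± 0.315 in vehicle and 26.1% ± 0.471 in 4OHT cells, and that of Mta2 was 49.7% ± 0.54 and 45.6% ± 1.73 (SD, n = 3 each).

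Of the MBD subunits, Mbd2, which binds methylated DNA, fell, while Mbd3, which lacks strong binding to it, did not pass. Mbd2 had 22.6, 24.0 and 22.6 CPM in vehicle and 20.1, 17.2 and 18.4 CPM in 4OHT libraries, with no overlap (log2 fold change -0.25, SE 0.08, 95% interval -0.42 to -0.09, edgeR adjusted p = 0.0263). The value of 4OHT replicate 2 rests on 9 reads. The call was lost without vehicle replicate 2, vehicle replicate 3 or 4OHT replicate 3, with adjusted p of 0.108, 0.0608 and 0.085, and DESeq2 gave 0.429 and quantile normalization 0.0902. Mbd3 had 154, 158 and 153 CPM in vehicle and 140, 147 and 147 CPM in 4OHT libraries. All 3 of its 4OHT values were lower too, by little (log2 fold change -0.11, 95% interval -0.23 to 0.01, edgeR adjusted p = 0.198).

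The members that encode catalytic subunits of NuRD, Chd3, Chd4, Hdac1 and Hdac2, had log2 fold changes between -0.05 and 0.14, and none passed. Chd4 had 899, 870 and 883 CPM in vehicle and 999, 964 and 940 CPM in 4OHT libraries. Its groups did not overlap, but it did not pass (log2 fold change 0.13, 95% interval 0.01 to 0.25, edgeR adjusted p = 0.105). Blocked on the replicate number, Chd4 had an adjusted p of 0.0189. Chd3, its paralog, stood at 29.6, 29.1 and 28.1 CPM in vehicle and 32.8, 22.9 and 29.5 CPM in 4OHT libraries, with overlap (log2 fold change 0.10, 95% interval -0.06 to 0.25). Hdac2 had 193, 204 and 205 CPM in vehicle and 227, 204 and 221 CPM in 4OHT libraries (log2 fold change 0.14, edgeR adjusted p = 0.0865, or 0.0127 when blocked on the replicate number). Hdac1 had 142, 141 and 137 CPM in vehicle and 140, 118 and 133 CPM in 4OHT libraries (log2 fold change -0.05, 95% interval -0.17 to 0.08). A pair of other genes match at least 50% of the Hdac1 transcript at 95% identity or more, so reads of Hdac1 can be shared with them. Neither is among the deposited gene symbols under its GENCODE name, and how such reads were counted is not known. The share of Hdac2 in the reads per kilobase of both deacetylase genes was 40.9% ± 1.16 in vehicle and 44.5% ± 0.831 in 4OHT cells (SD, n = 3 each). With the longest coding transcript as length it was 47.4% and 51.1%, so in vehicle Hdac1 was the higher of both genes with either length, while in 4OHT cells the order depended on the length used. The GATAD2 scaffold genes Gatad2a and Gatad2b had log2 fold changes of 0.05 (95% interval -0.07 to 0.17) and 0.04 (-0.09 to 0.17).

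**Figure D4:**
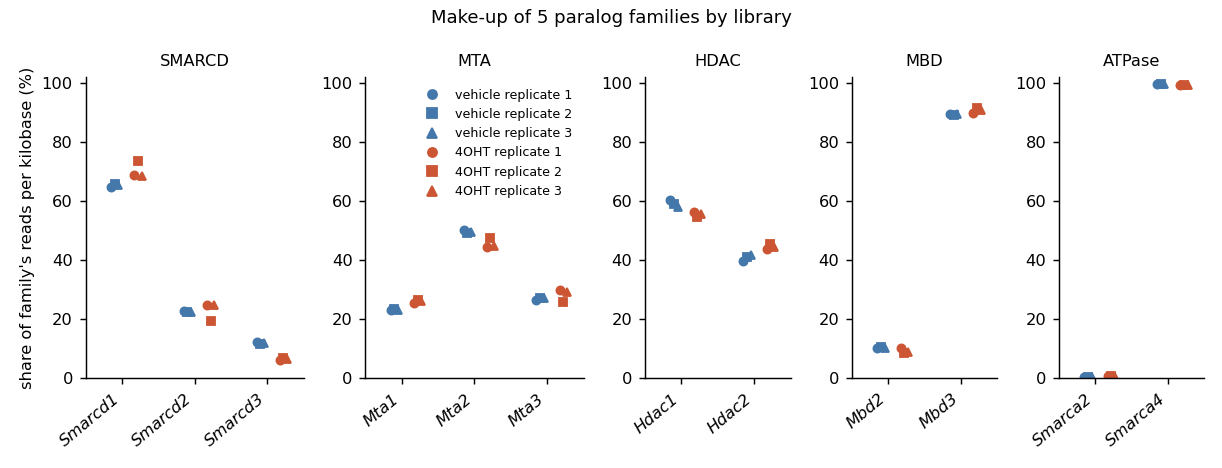
Share of each gene in the reads per kilobase of its paralog family, in percent, in each of the 6 libraries (blue vehicle, orange 4OHT), for the 5 families with a share that did not overlap between groups. Smarcd3 goes from 12.0% to 6.54% and Mta1 from 23.3% to 26.1%.

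Shares within families were compared for 27 genes of 12 paralog families. For 10 genes of 5 families the vehicle and 4OHT shares did not overlap: Smarcd1 and Smarcd3, Mta1 and Mta2, Hdac1 and Hdac2, Mbd2 and Mbd3, and Smarca2 and Smarca4. Each had a 2-sided exact permutation p of 0.1, the smallest that 3 against 3 samples can give. After adjustment over the 27 shares it was 0.27, so none passed. In a family of 2 genes the shares mirror each other. The Hdac1 and Hdac2, Mbd2 and Mbd3, and Smarca2 and Smarca4 pairs are therefore a single comparison each, and the 10 are not independent. How often shares of other genes fail to overlap was not tested. The shares of Smarca2 were small on both sides, 0.477% ± 0.0072 in vehicle and 0.722% ± 0.0917 in 4OHT cells (SD, n = 3 each). In 4OHT replicate 2 the 3 SMARCD genes had 202 reads together, of which Smarcd3 took 3.96% (exact Clopper-Pearson 95% interval 1.73% to 7.65%, counting error only, not divided by length). This interval also holds the Smarcd3 read share of every vehicle library, so this library alone does not set the groups apart. In the other 4OHT libraries the Smarcd3 interval lay below all vehicle read shares. For Mta1, Mta2 and the HDAC, MBD and ATPase genes the replicate 2 interval likewise spanned the vehicle read shares. For Smarcd1 it lay above them.

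Of 10 BAF subunits outside the 32, 2 rose, 0 fell and 8 did not pass. Gltscr1 (also Bicra), a subunit of non-canonical BAF, rose with a log2 fold change of 0.31 (edgeR adjusted p = 0.0211). Its mean went from 14.0 ± 1.09 to 20.4 ± 5.46 CPM (SD, n = 3 each). The 4OHT values were 17.0, 26.7 and 17.6 CPM, so the mean was raised by replicate 2, which rests on 14 reads. The adjusted p of Gltscr1 was 0.0751 without vehicle replicate 2, 0.106 without vehicle replicate 3, 0.354 with DESeq2 and 0.0629 with quantile normalization. Actb, the actin that is also a BAF subunit, rose with a log2 fold change of 0.23 (edgeR adjusted p = 0.00691), a call lost without vehicle replicate 2 (0.0553). Of 9 tested NuRD subunits and partners outside the 32, 2 rose and 1 fell. Sall4, a zinc finger factor that recruits NuRD, rose by 0.54 on the log2 scale (edgeR adjusted p = 4.1e-07), with 324 ± 7.89 CPM in vehicle and 470 ± 7.87 CPM in 4OHT cells. Zfp296 rose with a log2 fold change of 0.26 (edgeR adjusted p = 0.00493), a call lost without vehicle replicate 2 (0.0502) and with DESeq2 (0.142). Chd5, the neuronal paralog of Chd3 and Chd4, fell by 0.39 on the log2 scale (edgeR adjusted p = 0.0038), with 17.6 ± 0.836 CPM in vehicle and 14.0 ± 1.54 CPM in 4OHT cells. DESeq2 gave Chd5 an adjusted p of 0.228.

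Other families of remodellers had shares of called genes from 15.4% to 29.4%, beside 20% for the members. In the ISWI list 1 of 11 rose and 2 fell, in the INO80, SRCAP and TIP60-p400 list 3 of 17 rose and 2 fell, and in the list of CHD and other remodellers 2 of 13 rose and 0 fell. Baz2a, a subunit of a nucleolar ISWI complex, rose (log2 fold change 0.38, edgeR adjusted p = 3.9e-05). The ISWI ATPase gene Smarca1 fell by 0.58 on the log2 scale (edgeR adjusted p = 0.000112), but its groups overlapped. Its 4OHT values were 13.8, 19.1 and 11.8 CPM, and the 19.1 CPM, on 10 reads, lay within the vehicle range of 18.6 to 20.3 CPM. Ruvbl1, an AAA+ ATPase of INO80 and TIP60, fell by 0.46 on the log2 scale (edgeR adjusted p = 4.8e-05), and Chd8, a CHD helicase, rose (0.27, edgeR adjusted p = 0.0018). No difference between these lists and the members was tested.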

How the data were processed

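Poly(A) RNA from 6 samples of mouse embryonic stem cells was made into NEBNext Ultra libraries, per the labels' protocols. The authors deposited read counts per gene symbol as whole numbers, whose unequal totals per library are those of unscaled counts. STAR, DESeq and the mm9 build are named without versions, per the submitters' processing notes. The counting tool, the annotation and the strand setting were not given in the sources used here. Groups and replicate numbers came from the labels.

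The test was edgeR 4.0.16 (R 4.3.3) with filterByExpr (minimum count 10), TMM factors, and a quasi-likelihood fit with a treatment term over all 6 samples. P-values were adjusted by Benjamini-Hochberg over the 14458 tested genes, with 0.05 as threshold. Log2 fold changes set 4OHT over vehicle (prior count 0.125), and SE and 95% intervals come from this fit. The procedure was tested on simulated data, where it recovered 49.3% of 1.25-fold, 74.7% of 1.5-fold and 94.7% of 2-fold changes. Small changes can therefore be missed. The simulation changed far fewer genes than passed in the data. It took the spread of each gene from the trend over all genes. These rates therefore need not hold for the members. DESeq2 1.42.0, quantile normalization in limma-voom (limma 3.58.1), other filters, a replicate block and leaving out each library were alternatives, and another exon length was added after the data were seen. The design named per-library values for members past the threshold and their paralogs, and up to 4 genes of each other list by smallest adjusted p. The members and lists were chosen with earlier results of these data known.

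Deviations of same-numbered samples from their group means correlated at 0.57, 0.15 and 0.39 over 3632 genes, all above 0.1. The main test did not pair the samples, and the replicate number was a block in an alternative fit only. No label says what the numbers mark, and vehicle replicate 2 correlated more with 4OHT replicate 3 (0.45), so a pairing by number is uncertain. No pair of libraries agreed within sampling noise (lowest chi-square per degree of freedom 1.25). Exon lengths and overlaps came from GENCODE vM21 and copies from blastn 2.17.0 (95% identity over 50% of the transcript). Promoters came from RefSeq. These use GRCm38, not mm9, so coordinates belong to the promoter windows alone. Srcap was not analysed here.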

Additional observations from a re-analysis of the deposited data

How the results depend on the processing

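Of 330 refits of the 30 tested members, 286 kept the direction and the side of the threshold, 10 lost a call, 7 gained one and 27 changed sign. Smarcd3, Arid1a, Mta1 and Mta3 passed in all 11 alternatives, and Smarca2 and Mbd2 in 6 each. The members past the threshold numbered 4 to 8 with a library left out, 4 with DESeq2, 5 with quantile normalization and 9 in the fit blocked on replicate number, where 7 were higher. The members lower numbered 1 to 2 with a library left out and 1 with DESeq2. Over all genes DESeq2 called 977 (568 higher, 409 lower) and quantile normalization 2088 (1120 and 968), while the replicate block gave 4073. The median log2 fold change of members ranged from 0.035 to 0.093 with a library left out, the latter without 4OHT replicate 3. The block changed no other call among the members than those of Smarcc2, Chd4 and Hdac2.

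All 27 changes of sign were in members that passed in neither fit. Over the fits with a library left out, the log2 fold change ran from -0.015 to 0.034 for Smarca4, -0.0014 to 0.12 for Smarcd1, -0.021 to 0.12 for Smarcd2, -0.022 to 0.12 for Smarce1 and -0.044 to 0.11 for Pbrm1. It ran from -0.066 to 0.068 for Dpf2, -0.15 to 0.14 for Brd7, -0.17 to 0.10 for Brd9, -0.048 to 0.011 for Mta2 and -0.0027 to 0.068 for Gatad2b. For Chpf2, which overlaps Smarcd3, it ran from -0.064 to 0.016. With quantile normalization the value was -0.043 for Smarca4, -0.033 for Smarcd1, -0.0071 for Dpf2 and -0.026 for Brd7. In the blocked fit it was -0.0042 for Dpf2 and -0.0017 for Brd7, and with DESeq2 it was -0.0086 for Dpf2. The cause of these changes was not tested. The depth of 4OHT replicate 2 limits its values for Smarca2, Dpf1, Smarcd3 and Mbd2, which rest on 2 to 9 reads there.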
